A study of Mus musculus with 40 samples.

Results

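The leukotriene and lipoxygenase genes described here were 9 of the 45706 mouse genes measured, chosen by symbol as genes that release arachidonic acid, turn it into leukotrienes or hydroxylated lipids, or receive the leukotriene signal. They were Pla2g4a, Alox5, Alox5ap, Lta4h, Ltc4s, Ltb4r1, Cysltr1, Alox12 and Alox15, and all 9 had a row in each of the 40 libraries. They were chosen for their function and not for their values in these data, although earlier results of the data were known.

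RNA was sequenced from 10 groups of sorted mouse cells with 4 libraries each. Neutrophils and monocytes came from colon tumors, from blood of the tumor-bearing (TB) mice and from blood of healthy mice, and epithelial and stromal cells came from colon tumors and from healthy colon. Tumor and TB samples came from mice labelled Cdx2CreERT2 - Apc fl/fl on a C57Bl6/Sv background, in which 1 intraperitoneal dose of tamoxifen at 25 mg/kg, given at an age of 8 to 10 weeks, switches on a Cre recombinase driven by the intestinal Cdx2 promoter and deletes Apc. Healthy samples came from C57Bl6 mice with no transgene and no agent, and the labels give no age for them, so strain, transgene, tamoxifen and tumor cannot be told apart in any comparison of TB or tumor with healthy samples. Tumor and TB blood cells came from mice of the same kind, and differed in the tissue and in how cells were freed from it. By the study's methods, monocytes were sorted as Ly6C high cells without Ly6G or MHCII, and neutrophils by Ly6G. The titles of 4 libraries name a pair of animals each. By their titles, all 4 healthy blood neutrophil libraries came from animals that recur in 2 of the pooled healthy blood monocyte libraries, 3 animals gave both tumor neutrophils and tumor monocytes, and 1 animal is shared in each of the comparisons of tumor with blood neutrophils, tumor with blood monocytes and healthy epithelium with stroma, so the groups of these comparisons are not fully independent. Blood neutrophils and blood monocytes of TB mice share animals too, which bears on the test that sets their changes from blood to tumor against each other. Nothing in the labels says that the libraries of a group were independent in every step, so p-values measure the spread between these libraries.

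As background, cytosolic phospholipase A2 (Pla2g4a) cuts arachidonic acid out of membrane phospholipids. 5-lipoxygenase (Alox5), helped by the membrane protein FLAP (Alox5ap), which presents the fatty acid to it, makes leukotriene A4. Leukotriene A4 hydrolase (Lta4h) turns that into leukotriene B4, a strong attractant of neutrophils that acts through the receptor BLT1 (Ltb4r1), while leukotriene C4 synthase (Ltc4s) makes the cysteinyl leukotrienes, which act through CysLT1 (Cysltr1) and related receptors. Platelet-type 12-lipoxygenase (Alox12) and 12/15-lipoxygenase (Alox15) make other hydroxylated fatty acids, and are best known from platelets and skin and from eosinophils and resident macrophages. Neutrophils are a classical source of leukotriene B4.

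Libraries held between 10716847 and 38002110 counts on genes, and genes encoded in the mitochondrion took 5.34% to 83.9% of them. Several libraries stood apart from the rest of their group. Healthy epithelial replicate 4 had the 83.9%. Tumor stromal replicates 1 and 2 carried the most epithelial transcripts of the stromal libraries. Their 8 epithelial markers summed to 225 and 131 RPKM, against 2.34 to 19.7 in healthy stroma and 148 to 363 in tumor epithelium. Tumor stromal replicates 3 and 4 held 48.0 and 27.8 RPKM of these markers, also above healthy stroma. Replicates 3 and 4 carried neutrophil transcripts too (7 markers, summed RPKM 1564 and 529, against 6.29 to 45.1 in healthy stroma). The 8 epithelial markers summed to 161 RPKM in tumor neutrophil replicate 1 and to 12.1 to 37.1 in the other tumor neutrophil libraries. The sorted cell types carried their own markers, with the exception of tumor stroma, where the 6 fibroblast markers summed to 5.97 to 24 RPKM against 355 to 2010 in healthy stroma. In bulk RNA such as this, fewer cells of a type and less RNA per cell cannot be told apart.

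Promoters of the members with a promoter entry that were called in more than 1 comparison are printed here so that their sequence can be read beside their levels. RefSeq (GRCm38.p6) held a promoter for 6 of the 9 genes, and not for Alox5ap, Alox15 and Cysltr1. The 250 bases before the transcription start are given 5′ to 3′ on the strand of the gene for Alox5 (chr6:116461179-116461428, minus strand), Alox12 (chr11:70255371-70255620, minus strand) and Pla2g4a (chr1:149961291-149961540, minus strand), with capitals marking GGGCGG (the GC box, known as a site of Sp1) and GAGGAA (a core of sites of ETS factors such as PU.1) on either strand, the latter read as TTCCTC on the other strand.
Alox5: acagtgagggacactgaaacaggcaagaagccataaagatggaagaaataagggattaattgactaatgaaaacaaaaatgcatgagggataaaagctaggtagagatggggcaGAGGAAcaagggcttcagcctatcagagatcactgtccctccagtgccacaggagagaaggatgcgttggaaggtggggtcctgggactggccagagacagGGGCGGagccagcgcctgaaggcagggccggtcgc
Alox12: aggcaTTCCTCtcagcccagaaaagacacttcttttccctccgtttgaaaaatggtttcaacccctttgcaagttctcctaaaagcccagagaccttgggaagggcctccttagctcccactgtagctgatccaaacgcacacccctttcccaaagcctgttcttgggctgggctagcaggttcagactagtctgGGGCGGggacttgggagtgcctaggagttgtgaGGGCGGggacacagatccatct
Pla2g4a: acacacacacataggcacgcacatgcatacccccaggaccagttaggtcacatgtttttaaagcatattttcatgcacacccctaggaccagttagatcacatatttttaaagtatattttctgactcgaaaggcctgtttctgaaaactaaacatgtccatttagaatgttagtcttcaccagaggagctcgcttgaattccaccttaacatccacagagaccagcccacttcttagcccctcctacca
Alox5 held GGGCGG and GAGGAA once each, Alox12 held GGGCGG 2 times and GAGGAA once, and Pla2g4a held neither. The letters GGGCGG were found in 3 of the 6 member promoters and in 32.7% of 32851 promoters of the same length, and GAGGAA in 4 of the 6 and in 23.3%. CTTTGA, the core letters of TCF/LEF sites, was in 13.8% of promoters and in 0 of the 6. In the printed promoters no match overlapped another. A match is a description of letters only.

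**Figure D1:**
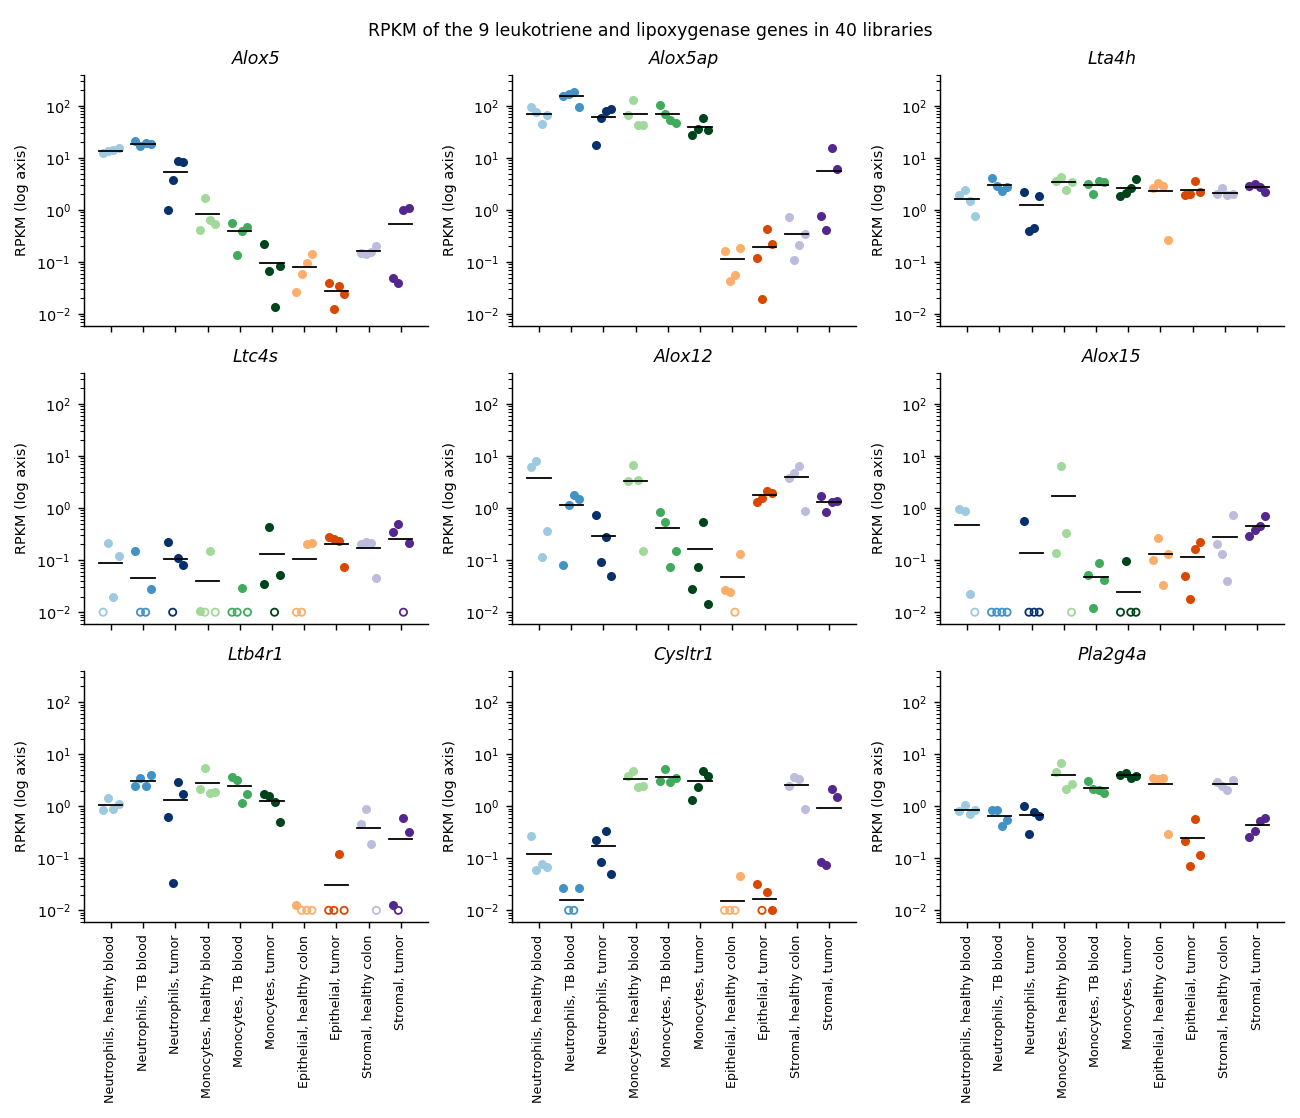
RPKM (reads scaled to gene length and library size, log axis) of each of the 9 genes in 40 libraries, 4 points and a bar at their mean for each of 10 groups, with open points for values under 0.01. Alox5 stood at 12.3 RPKM or above only in the blood neutrophils, Alox5ap at 18 or above in all 24 neutrophil and monocyte libraries, and the 10 group means of Lta4h lay between 1.23 and 3.42.

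On the RPKM scale, which corrects for gene length and so allows levels of different genes to be set side by side, Alox5ap was the most abundant of the 9 genes in all 6 neutrophil and monocyte groups, with group means from 38.7 to 152 RPKM. The means of the 9 genes summed to 179 RPKM in blood neutrophils of TB mice, 91.8 in those of healthy mice and 70.0 in tumor neutrophils. They summed to 90.6, 80.7 and 49.96 RPKM in monocytes of healthy blood, TB blood and tumor. In the colon cells the sums were 5.42 RPKM in healthy epithelium, 5.02 in tumor epithelium, 12.7 in healthy stroma and 12.6 in tumor stroma. Of the 9 genes, 7 had a group mean of at least 1 RPKM in healthy blood monocytes, 5 in healthy blood neutrophils and 2 in either epithelial group.

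Each comparison was fitted on the rounded, TMM-scaled counts of its 8 libraries (quasi-likelihood test, edgeR), and a gene was called when its Benjamini-Hochberg adjusted p over all genes tested was under 0.05 and its log2 difference exceeded 1.5 in size. TMM scaling differs from the RPKM scale by 1 factor for each library, which ran from 0.619 to 1.79 with the exception of healthy epithelial replicate 4, at 4.4, so overlap between groups can differ between the scales. On the log2 scale the shift between group means was between -0.14 and 0.24 for the blood to tumor and TB to healthy comparisons of neutrophils and monocytes, and it reached -0.78 for tumor against healthy epithelium, 0.31 for tumor against healthy stroma, 0.79 for healthy blood neutrophils against monocytes, 0.35 for tumor neutrophils against tumor monocytes and 1.14 for healthy epithelium against stroma. Fitted log2 differences below are relative to the TMM scale and levels are RPKM.

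Pla2g4a (ENSMUSG00000056220, mm10 chromosome 1 from 149829618 to 149961290, minus strand), the enzyme that frees arachidonic acid, was lower in tumor than in healthy colon in both epithelial and stromal cells. In healthy epithelium its 4 libraries held 3.43, 3.28, 3.53 and 0.299 RPKM, and in tumor epithelium 0.220, 0.0718, 0.569 and 0.118 RPKM. The low healthy library was replicate 4, whose deposited value overlapped with the tumor libraries. That library was also the one with 83.9% mitochondrial counts, and on the TMM scale its Pla2g4a level was 1.32 against at most 0.382 in tumor, so that the groups no longer overlapped. The difference was -3.93 on the log2 scale (standard error 0.56, edgeR quasi-likelihood test with Benjamini-Hochberg adjustment, adjusted p = 6.8e-04), and leaving out any 1 library gave -4.49 to -3.67. The call was kept under 9 of 10 other alternatives, which gave -4.12 to -1.40, the last under the fold threshold.

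In stromal cells Pla2g4a measured 2.98, 2.45, 2.07 and 3.25 RPKM in healthy colon and 0.261, 0.340, 0.532 and 0.593 RPKM in tumor. All 4 tumor libraries lay below all healthy libraries. The log2 difference was -2.30 (standard error 0.32, edgeR quasi-likelihood test, adjusted p = 0.00574). It was -1.98 without tumor stromal replicates 1 and 2, which had the most epithelial transcripts, and -2.71 without replicates 3 and 4, which had neutrophil transcripts. The call held in both (edgeR, adjusted p = 0.0146 and 0.00318, range over the other settings 2.8e-09 to 0.0392). It was kept in all 8 fits without 1 library and under 11 of 12 other alternatives, which gave -2.71 to -1.36, the last under the fold threshold. Fibroblast markers, at a median summed RPKM of 571 in healthy and 18.5 in tumor stroma, moved with this fall, and their part in it was not tested.

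Monocytes held more Pla2g4a than neutrophils. In tumor, monocytes had 3.95, 4.29, 3.46 and 3.89 RPKM and neutrophils 1.03, 0.291, 0.773 and 0.661. The groups did not overlap, and the difference of neutrophils from monocytes was -2.09 (standard error 0.37, adjusted p = 0.00728, edgeR). In healthy blood, monocytes had 4.47, 6.79, 2.19 and 2.64 RPKM and neutrophils 0.822, 1.04, 0.709 and 0.859. These too did not overlap, but the log2 difference of -1.46 (standard error 0.34) passed the p threshold only (adjusted p = 0.00569, edgeR) and not the fold threshold. With the animal named in the titles as a block, the adjusted p of the tumor difference was 0.0557, the highest over its alternatives, of which the lowest was 4.9e-09.

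Within monocytes, Pla2g4a was the member with the smallest p between tumor and blood. Blood monocytes of TB mice had 3.01, 2.16, 2.10 and 1.82 RPKM, so all 4 lay below the lowest tumor monocyte library, at 3.46. The log2 difference was 1.04 (standard error 0.21, adjusted p = 0.00724, edgeR), past the p threshold but under the fold threshold, so it was not called. In neutrophils, tumor and TB blood overlapped, at 0.687 ± 0.305 and 0.662 ± 0.212 RPKM (SD, n = 4).

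Alox5 (ENSMUSG00000025701, mm10 chromosome 6 from 116410077 to 116461178, minus strand), the gene of 5-lipoxygenase, was a neutrophil transcript in these data. Blood neutrophils of TB mice held 21.1, 16.9, 19.2 and 18.3 RPKM, those of healthy mice 12.3, 13.3, 14.0 and 15.8, and tumor neutrophils 1.00, 3.75, 8.66 and 8.52. Monocytes of healthy blood held 0.409, 1.68, 0.654 and 0.530 RPKM, those of TB blood 0.567, 0.138, 0.398 and 0.472, and tumor monocytes 0.220, 0.0674, 0.0138 and 0.0838. Every blood neutrophil library was above every library of the other 8 groups, and tumor neutrophil replicate 1 was the 1 neutrophil library that fell within the range of the monocytes.

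Neutrophils exceeded monocytes in Alox5 in healthy blood by 4.86 on the log2 scale (standard error 0.49, adjusted p = 4.7e-05, edgeR's quasi-likelihood test) and in tumor by 6.42 (standard error 0.99, adjusted p = 0.00441). Under the 19 alternatives of each comparison, single left-out libraries included, both calls were kept. The shared animals of these comparisons were not blocked in the healthy blood fit. Tumor neutrophil replicate 1 was also the tumor neutrophil library with the lowest summed RPKM of 7 neutrophil markers, at 1921 against 5990 to 12417 in the other 3.

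From TB blood to tumor, Alox5 measured 18.9 ± 1.8 RPKM in blood and 5.48 ± 3.76 RPKM in tumor neutrophils (SD, n = 4), and all 4 tumor libraries lay below all 4 blood libraries. The 7 neutrophil markers moved the same way without overlap, from 15514 to 20232 RPKM in TB blood to 1921 to 12417 in tumor, and mitochondrial genes took 9.36% to 16.8% of counts in TB blood and 17% to 37.5% in tumor, and the part of either in the values of Alox5, Alox5ap and Lta4h was not tested. The log2 difference of -1.71 (standard error 0.57) did not pass edgeR's test after Benjamini-Hochberg adjustment (adjusted p = 0.0620). Over the 10 alternatives that kept the 8 libraries, the adjusted p ran from 0.0205 to 0.0784, and 6 left Alox5 uncalled. Those that called it included limma-voom (-2.17, adjusted p = 0.0428), DESeq2 (-1.74, adjusted p = 0.0223) and limma on log2(RPKM + 1) (-1.87, adjusted p = 0.0205). Without tumor neutrophil replicate 1 the difference was -1.34, which passed the p threshold (adjusted p = 0.00491, against 0.0719 to 0.117 without any of the other 7) and not the fold threshold. In monocytes the same step gave a log2 difference of -1.76 (standard error 0.80, adjusted p = 0.161, edgeR), with overlapping libraries.

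Between TB and healthy blood neutrophils, Alox5 did not overlap on the RPKM scale (16.9 to 21.1 against 12.3 to 15.8) but did overlap on the TMM scale, and it did not pass edgeR's test. The colon cells had little Alox5. In tumor stroma, replicates 3 and 4 held 0.989 and 1.11 RPKM and replicates 1 and 2 held 0.0496 and 0.0402, while healthy stroma held 0.140 to 0.206. The higher pair was the pair with neutrophil transcripts, and the difference between tumor and healthy stroma, 2.02 with all libraries (standard error 0.97, adjusted p = 0.238, edgeR), was -1.41 without that pair. Healthy epithelium held 0.0267, 0.0581, 0.0963 and 0.143 RPKM and tumor epithelium 0.0400, 0.0124, 0.0350 and 0.0248, which overlap. Alox5 was called lower in tumor epithelium, at a log2 difference of -3.08 (standard error 1.00, adjusted p = 0.0497, edgeR), from at most 58 counts in any of the 8 libraries. Without healthy epithelial replicate 4 it was -1.25 (adjusted p = 0.199), and the call was kept in 2 of 8 fits without 1 library and under 3 of 9 other alternatives.

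Alox5ap (ENSMUSG00000060063, mm10 chromosome 5 from 149264767 to 149288153, plus strand), which encodes FLAP, was shared by neutrophils and monocytes. Its RPKM was 93.9, 75.9, 44.0 and 66.1 in healthy blood neutrophils, 158, 169, 187 and 96.5 in TB blood neutrophils, and 18, 58.7, 79.8 and 85.7 in tumor neutrophils. Monocytes held 67.3, 131, 42.5 and 43.6 RPKM in healthy blood, 105, 70.1, 52.7 and 46.1 in TB blood, and 27.0, 35.3, 57.7 and 34.6 in tumor. Neutrophils and monocytes overlapped in healthy blood and in tumor, and neither difference passed edgeR's test. The lowest of the neutrophil and monocyte libraries was tumor neutrophil replicate 1, at 18 RPKM, still above the highest colon library, at 15.5. Short genes lie across from Alox5ap on the other strand, and whether strand was used in counting is not given in the sources used here.

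In blood neutrophils, Alox5ap was above all healthy libraries in all 4 TB libraries. The log2 difference was 1.17 (standard error 0.25, adjusted p = 0.0235, edgeR's quasi-likelihood test), which passed the p threshold and not the fold threshold, and without healthy blood neutrophil replicates 1 and 2, which carried platelet transcripts, it was 1.37 (adjusted p = 0.0502, range over alternatives 0.00147 to 0.608). From TB blood to tumor the level was 152 ± 39 RPKM in blood and 60.5 ± 30.6 RPKM in tumor neutrophils (SD, n = 4). All 4 tumor libraries again lay below the 4 blood libraries, with a log2 difference of -1.21 (standard error 0.52) that did not pass edgeR's test (adjusted p = 0.132).

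**Figure D2:**
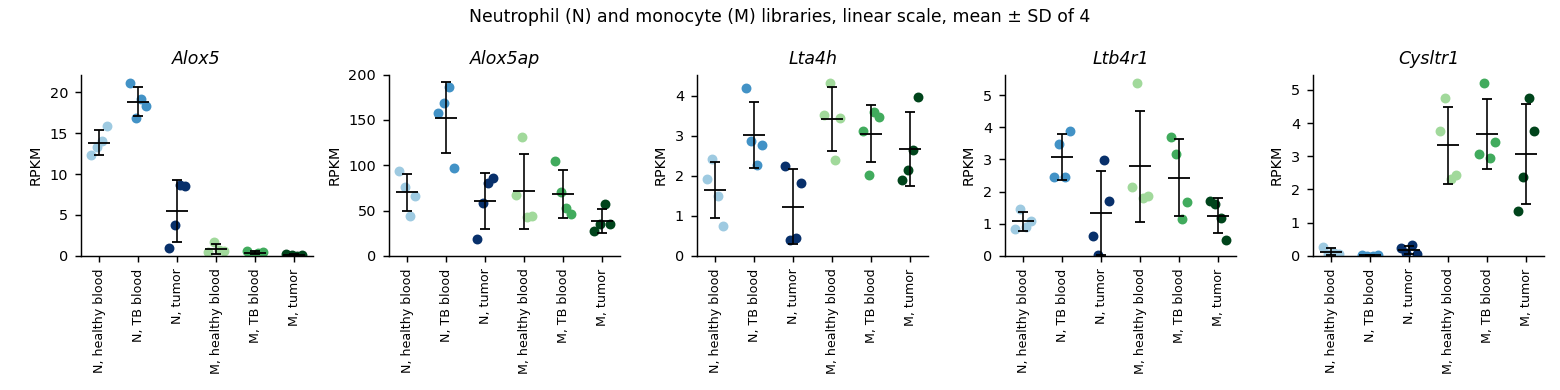
RPKM on a linear axis of Alox5, Alox5ap, Lta4h, Ltb4r1 and Cysltr1 in the 24 neutrophil (N) and monocyte (M) libraries, with each library as a point and mean ± SD of 4 as bars. Blood neutrophils of TB mice had the highest group mean of Alox5 (18.9 RPKM) and of Alox5ap (152 RPKM), and Cysltr1 was at 0.333 RPKM or less in every neutrophil library.

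The ratio of Alox5ap to Alox5 within a library does not depend on its scaling. It was 3.14 to 7.64 in healthy blood neutrophils, 5.27 to 10.0 in TB blood neutrophils and 9.22 to 18 in tumor neutrophils. In monocytes it was 65.0 to 164 in healthy blood, 97.7 to 510 in TB blood and 123 to 4189 in tumor, where the highest value rests on 3 counts of Alox5. The lowest monocyte ratio was thus above the highest neutrophil ratio.

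In tumor stroma Alox5ap was called higher than in healthy stroma, with a log2 difference of 4.28 (standard error 1.14, adjusted p = 0.0483, edgeR). The 4 tumor libraries held 0.755, 0.409, 15.5 and 6.24 RPKM and the healthy ones 0.728, 0.109, 0.215 and 0.349. The high values were again those of replicates 3 and 4, whose 7 neutrophil markers summed to 1564 and 529 RPKM, while replicates 1 and 2, at 41.7 and 8.55 RPKM of those markers, stood near the healthy range. Without replicates 3 and 4 the difference was 1.12 (adjusted p = 0.307), and without replicates 1 and 2 it was 5.21 (adjusted p = 0.00827). Over all alternatives the adjusted p ran from 1.7e-04 to 0.307. The call was kept in 2 of 8 fits that left out 1 library. In epithelium the level was 0.113 ± 0.074 RPKM in healthy colon and 0.198 ± 0.174 RPKM in tumor (SD, n = 4) and did not pass the test.

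Lta4h (ENSMUSG00000015889, mm10 chromosome 10 from 93453411 to 93484875, plus strand), which makes leukotriene B4, was the most evenly expressed member. Its 10 group means ran from 1.23 RPKM in tumor neutrophils to 3.42 RPKM in healthy blood monocytes, and no group was apart from its neighbour in that order. It was not called in any of the 10 comparisons. Tumor neutrophils held 2.25, 0.40, 0.455 and 1.83 RPKM and TB blood neutrophils 4.2, 2.87, 2.28 and 2.76. The 4 tumor libraries lay below the 4 blood libraries, by a small gap between 2.25 and 2.28, and the log2 difference was -1.39 (standard error 0.55, adjusted p = 0.108, edgeR). In the fit of all 40 libraries it was -1.58 (adjusted p = 0.00197), the 1 of 18 alternatives that called it, with adjusted p of up to 0.22 in the others.

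The same step in monocytes left Lta4h at 2.67 ± 0.93 RPKM in tumor against 3.06 ± 0.72 RPKM in TB blood (SD, n = 4). A joint fit of 16 libraries set the neutrophil step against the monocyte step, with no block for the animals that its groups share. For Lta4h the neutrophil change minus the monocyte change was -1.58 (standard error 0.65, adjusted p = 0.168, edgeR). It stayed uncalled in all 16 fits without 1 library and under 9 of 10 other alternatives, with adjusted p of 0.0473 to 0.278 over the 10.

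Ltc4s (ENSMUSG00000020377, mm10 chromosome 11 from 50236461 to 50238616, minus strand), the first enzyme of the cysteinyl branch, had at most 18 counts in any library and was not tested in any comparison. Its group means ran from 0.00744 RPKM in TB blood monocytes to 0.260 RPKM in tumor stroma. The highest single library was tumor stromal replicate 2, at 0.485 RPKM and 17 counts. Another gene on the opposite strand overlaps Ltc4s, so the source of these few counts is uncertain. Mast cells are a known source of Ltc4s. The 6 mast cell markers summed to 2.31, 1.85, 9.61 and 8.31 RPKM in tumor stroma, beside 0.345, 0.485, 0 and 0.211 RPKM of Ltc4s. In healthy stroma they summed to 3.74, 2.60, 13.9 and 6.41 RPKM, beside 0.207, 0.227, 0.213 and 0.0454 RPKM of Ltc4s. The part of mast cell RNA in these counts was not tested.

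Ltb4r1 (ENSMUSG00000046908, mm10 chromosome 14 from 55765962 to 55768494, plus strand), the high-affinity receptor of leukotriene B4, was called higher in blood neutrophils of TB mice than in those of healthy mice. The TB libraries held 2.46, 3.47, 2.47 and 3.90 RPKM and the healthy libraries 0.83, 1.46, 0.888 and 1.10. All TB libraries were above all healthy ones. The log2 difference was 1.58 (standard error 0.28, adjusted p = 0.0116, edgeR's quasi-likelihood test), close to the fold threshold of 1.5. It fell to 1.47 without healthy blood neutrophil replicate 1, to 1.42 without TB blood neutrophil replicate 4, and to 1.52 with an adjusted p of 0.0551 without healthy replicates 1 and 2, and the call was lost each time. The adjusted p ran from 1.5e-06 to 0.615 over its alternatives, the highest in the fit of all 40 libraries.

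In tumor neutrophils Ltb4r1 spread widely, at 0.625, 0.0328, 2.99 and 1.70 RPKM. These libraries overlapped with those of TB blood, and the log2 difference of -1.28 (standard error 0.86, adjusted p = 0.339, edgeR) did not pass. The lowest of them, replicate 2, rests on 3 counts, and the same library was not low in Alox5ap, at 58.7 RPKM.

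Monocytes expressed Ltb4r1 in the range of the neutrophil libraries, which reached 3.90 RPKM, with the exception of healthy blood monocyte replicate 2, at 5.38. Healthy blood monocytes held 2.13, 5.38, 1.79 and 1.87 RPKM, TB blood monocytes 3.71, 3.18, 1.16 and 1.69, and tumor monocytes 1.72, 1.60, 1.19 and 0.50. Healthy blood monocytes lay above healthy blood neutrophils on the RPKM scale but overlapped with them on the TMM scale, and none of the monocyte comparisons passed the test. In the colon, epithelial libraries had at most 15 counts of Ltb4r1, and stromal libraries ranged from 0 to 0.867 RPKM.

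Cysltr1 (ENSMUSG00000052821, mm10 chromosome X from 106574346 to 106603679, minus strand), the receptor of cysteinyl leukotrienes, showed the reverse of the Alox5 pattern. Monocytes held 3.77, 4.76, 2.33 and 2.44 RPKM in healthy blood, 3.06, 5.20, 2.95 and 3.44 in TB blood, and 1.34, 2.39, 4.74 and 3.77 in tumor. Neutrophils held 0.272, 0.0600, 0.0784 and 0.0671 RPKM in healthy blood, 0.0270, 0.00357, 0.00500 and 0.0273 in TB blood, and 0.222, 0.0834, 0.333 and 0.0489 in tumor. Every monocyte library was above every neutrophil library.

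Neutrophils were lower than monocytes in Cysltr1 by a log2 difference of -4.03 in healthy blood (standard error 0.55, adjusted p = 2.8e-04, edgeR) and of -3.71 in tumor (standard error 0.70, adjusted p = 0.00993). Both calls were kept under all 19 alternatives of each comparison. Cysltr1 overlaps other annotated genes on both strands, so a part of its counts may belong to them.

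From TB blood to tumor, Cysltr1 was called higher in neutrophils, at 0.172 ± 0.131 RPKM in tumor and 0.0157 ± 0.0132 RPKM in blood (SD, n = 4). The log2 difference was 3.41 (standard error 0.96, adjusted p = 0.0326, edgeR), and the libraries did not overlap. The level stayed far below that of monocytes, and the blood libraries had 1 to 11 counts each. The call was kept in 2 of 8 fits that left out 1 library, with adjusted p of 0.0186 to 0.0956 over the 8. The 5 monocyte markers summed to 5.25 to 17.7 RPKM in tumor neutrophils and to 11.8 to 20.9 RPKM in TB blood neutrophils. Macrophage markers summed to 1.45 to 10.3 RPKM in the tumor libraries and to 0.455 to 3.76 RPKM in the blood libraries, and their part in the rise of Cysltr1 was not tested.

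Set against the same step in monocytes, the neutrophil change of Cysltr1 was 3.25 higher on the log2 scale (standard error 0.90, adjusted p = 0.0518, edgeR), which did not pass the threshold. Without tumor neutrophil replicate 2 it was 3.35 (adjusted p = 0.0335) and without replicate 4 it was 3.57 (adjusted p = 0.0269), and both passed, against adjusted p of up to 0.103 without any 1 of the other 14. Under 8 of 10 other alternatives it stayed uncalled, and DESeq2 was among those that called it (3.38, adjusted p = 0.0044). Between TB and healthy blood neutrophils, Cysltr1 was -2.86 (standard error 0.81, adjusted p = 0.0647, edgeR) and was not called. The TB libraries lay below all healthy ones, from 1 to 11 counts against 25 to 73.

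In healthy colon, Cysltr1 was a stromal transcript, at 2.46, 3.58, 3.4 and 0.868 RPKM, against 0.00946, 0.00376, 0.00172 and 0.0455 RPKM in epithelium. The groups did not overlap, and epithelium was lower by a log2 difference of -5.36 (standard error 1.33, adjusted p = 0.0108, edgeR), a call kept in all 8 fits without 1 library. In tumor stroma it was 0.0836, 0.0759, 2.13 and 1.49 RPKM, where the low pair was again the pair with the most epithelial transcripts. The 4 endothelial markers moved with Cysltr1 over these libraries, at 4.35, 3.70, 102 and 107 RPKM in tumor stroma and 80.9, 83.7, 107 and 11.6 RPKM in healthy stroma, and their part in its values was not tested. The difference of tumor from healthy stroma was -1.18 (standard error 0.98, adjusted p = 0.498, edgeR) with all libraries, and -4.60 (adjusted p = 0.00495) without replicates 3 and 4.

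Alox12 (ENSMUSG00000000320, mm10 chromosome 11 from 70241457 to 70255353, minus strand), the platelet-type 12-lipoxygenase, was called higher in tumor than in healthy epithelium. Tumor epithelium held 1.32, 1.59, 2.16 and 1.93 RPKM and healthy epithelium 0.0264, 0.0243, 0.00888 and 0.129. All tumor libraries lay above all healthy libraries, on the RPKM and on the TMM scale. The log2 difference was 3.38 (standard error 1.06, adjusted p = 0.0432, edgeR). The highest healthy library was again replicate 4, and without it the difference was 6.18 (adjusted p = 5.4e-05), while leaving out any of the other 7 libraries gave 2.92 to 3.41 and lost the call, with adjusted p of up to 0.0924. DESeq2 gave a log2 difference in the same direction but no p for Alox12 here, and the call was also lost with no filter and in the fit of all 40 libraries (adjusted p = 0.0506 and 0.0731, with a lowest value of 9.3e-09 over the alternatives).

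The 6 platelet markers summed to 0.0925 to 0.927 RPKM in tumor epithelium and 0.0651 to 0.385 RPKM in healthy epithelium. The 4 endothelial markers summed to 4.25 to 4.60 RPKM in tumor epithelium and 0.0640 to 0.366 RPKM in healthy epithelium, and their part in the rise of Alox12 was not tested. Healthy stroma held more Alox12 than healthy epithelium, at 3.79, 4.74, 6.50 and 0.899 RPKM, with no overlap and a log2 difference of epithelium from stroma of -4.25 (standard error 1.26, adjusted p = 0.0241, edgeR). That call was kept in 4 of 8 fits without 1 library, with adjusted p of up to 0.0583. The endothelial markers, at 80.9, 83.7, 107 and 11.6 RPKM in the 4 healthy stromal libraries, stood in the same order as Alox12 there. In tumor stroma they did not, at 4.35, 3.70, 102 and 107 RPKM beside 1.72, 0.855, 1.34 and 1.35 RPKM of Alox12. Their part in the stromal values was not tested. The difference of tumor from healthy stroma, -1.23 (standard error 0.50, adjusted p = 0.168, edgeR), was not called. Without healthy stromal replicate 4, the low one, it was -1.56 (adjusted p = 0.017, against up to 0.317 without any 1 of the other 7).

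**Figure D3:**
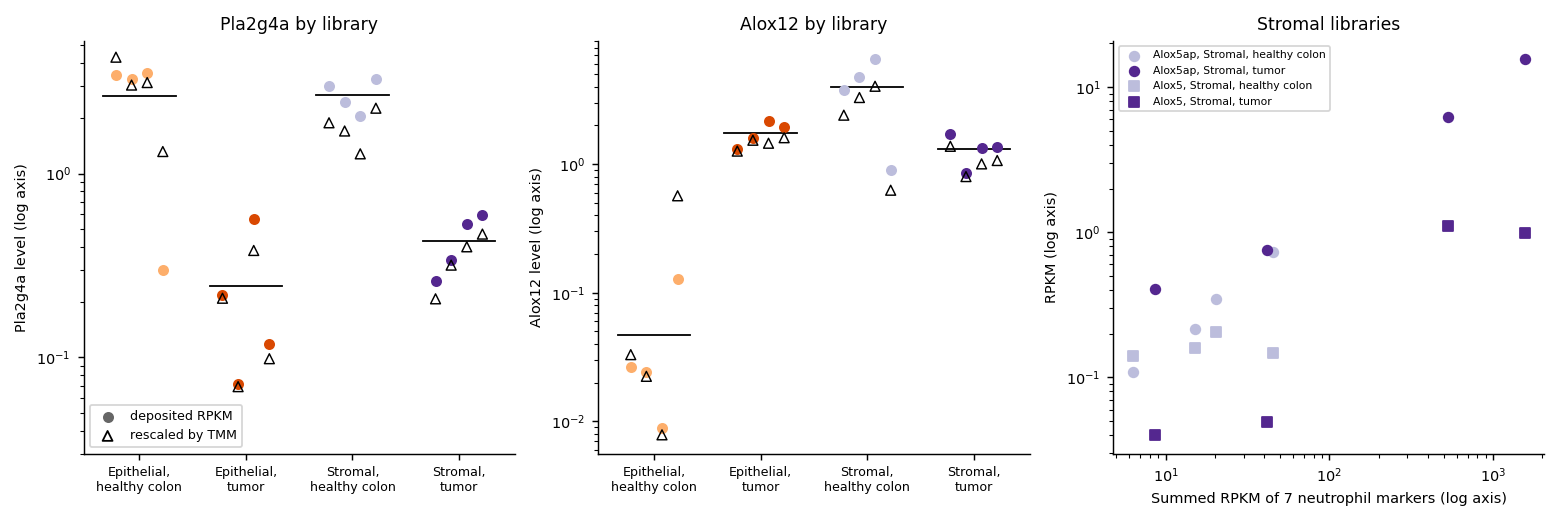
Left and middle, Pla2g4a and Alox12 in the 16 colon libraries on a log axis, as deposited RPKM (filled points, bar at the mean) and as RPKM rescaled by TMM over all 40 libraries (open triangles). Right, Alox5ap (circles) and Alox5 (squares) RPKM in the 8 stromal libraries against the summed RPKM of 7 neutrophil markers, where the tumor libraries with 529 and 1564 RPKM of markers held 6.24 and 15.5 RPKM of Alox5ap.

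In blood, Alox12 moved with platelet markers from library to library. Healthy blood neutrophils held 6.16, 8.20, 0.113 and 0.361 RPKM of Alox12 where the platelet markers summed to 225, 231, 2.26 and 10.6 RPKM. TB blood neutrophils held 0.0820, 1.15, 1.82 and 1.49 RPKM of Alox12 beside 2.52, 24.5, 39.6 and 42.2 RPKM of markers. The libraries low in Alox12 were those low in platelet markers in both groups.

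Healthy blood monocytes held 3.26, 6.65, 3.46 and 0.153 RPKM of Alox12 beside 111, 108, 116 and 1.75 RPKM of platelet markers. TB blood monocytes held 0.858, 0.545, 0.0742 and 0.153 RPKM beside 25.2, 37.7, 1.49 and 5.09 RPKM of markers. None of the 6 platelet markers was at 0 counts in all libraries of any blood group. Alox12 passed no test between blood groups. The log2 difference of TB from healthy blood was -1.5 in neutrophils (standard error 1.14, adjusted p = 0.495, edgeR) and -2.97 in monocytes (standard error 0.97, adjusted p = 0.324). In neutrophils it was 2.22 without healthy replicates 1 and 2.

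In tumor, platelet markers summed to at most 1.87 RPKM. Tumor neutrophils held 0.736, 0.0905, 0.281 and 0.0502 RPKM of Alox12 and tumor monocytes 0.0280, 0.0741, 0.551 and 0.0143. The difference of tumor from TB blood neutrophils was -2.15 (standard error 0.95, adjusted p = 0.147, edgeR) and was not called. The part of platelet RNA in these differences was not tested.

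Alox15 (ENSMUSG00000018924, mm10 chromosome 11 from 70344152 to 70352031, minus strand), the 12/15-lipoxygenase, was low in most libraries and high in single ones. Healthy blood monocytes held 0.140, 6.46, 0.326 and 0.00687 RPKM, and the high library was also the one with the most eosinophil marker RNA, with the 5 markers at a sum of 21.8 RPKM against 0.121 to 0.575 in the other 3. Healthy blood neutrophils held 0.964, 0.898, 0.0228 and 0 RPKM beside 5.09, 4.17, 3.37 and 2.81 RPKM of eosinophil markers, among which Prg2 and Epx were at 0 counts in all 4. Tumor neutrophil replicate 1 held 0.558 RPKM, and the other 3 tumor neutrophil libraries had 0 counts after rounding. There the eosinophil markers summed to 1.29 RPKM in replicate 1, the lowest of the group, and to 5.08, 2.29 and 3.37 RPKM in the other 3. The part of eosinophil RNA in these values was not tested.

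TB blood monocytes held 0.0118 to 0.0864 RPKM of Alox15, and their difference from healthy blood monocytes of -5.07 (standard error 1.63, adjusted p = 0.307, edgeR) was not called. In the colon, Alox15 measured 0.133 ± 0.099 RPKM in healthy epithelium, 0.115 ± 0.097 in tumor epithelium, 0.280 ± 0.319 in healthy stroma and 0.455 ± 0.171 in tumor stroma (SD, n = 4), all with overlapping libraries. It passed no test in any comparison in which it was tested.

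**Figure D4:**
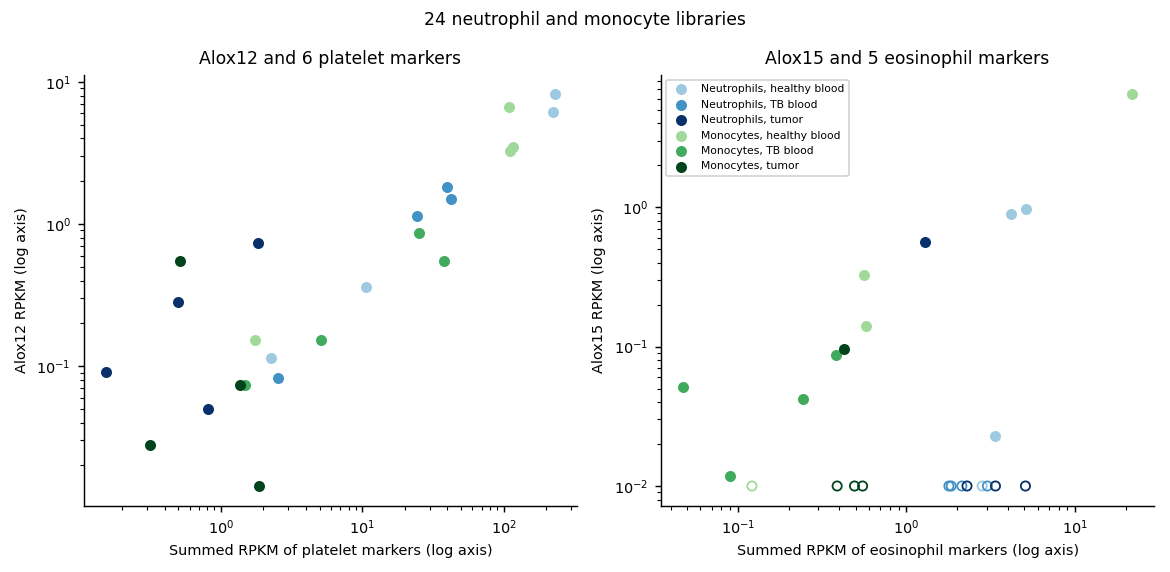
Left, Alox12 RPKM against the summed RPKM of 6 platelet markers, and right, Alox15 RPKM against the summed RPKM of 5 eosinophil markers, in the 24 neutrophil and monocyte libraries on log axes, with open points for values under 0.01. The blood libraries with 108 RPKM or more of platelet markers held 3.26 to 8.20 RPKM of Alox12, and the library with 21.8 RPKM of eosinophil markers held 6.46 RPKM of Alox15.

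The 9 genes can be counted in each comparison beside the share of all genes called in it. Between tumor and TB blood neutrophils, 7 members were tested, of which 1 was called higher in tumor, Cysltr1, and 0 lower by edgeR, where 11.9% of 13674 genes were called higher and 4.41% lower. Their median log2 difference was -1.28, against 0.11 over all genes, 4 were lower at an unadjusted p under 0.05, and limma-voom called 1 lower and DESeq2 2. In monocytes, 0 of 7 members were called between tumor and TB blood by edgeR, limma-voom and DESeq2, against 7.76% higher and 3.89% lower of 15280 genes, with a median of -0.53 against -0.03, and 1 member, Pla2g4a, passed the p threshold alone, with 2 at an unadjusted p under 0.05. For the difference between those 2 changes, 0 of 7 members were called by edgeR, 0 by limma-voom and 1, Cysltr1, by DESeq2, with 3 at an unadjusted p under 0.05, against 2.73% higher and 1.23% lower of 17465 genes.

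Between blood neutrophils of TB and healthy mice, 1 of 7 members was called higher in TB mice, Ltb4r1, and 0 lower by edgeR (1 by DESeq2, 0 by limma-voom), against 1.79% and 2.22% of 13360 genes, with a median log2 difference of 0.47 against -0.01. At an unadjusted p under 0.05 in edgeR's test, 4 were higher (Alox5, Alox5ap, Lta4h and Ltb4r1) and 1 lower (Cysltr1). In blood monocytes, 0 of 8 were called by edgeR, limma-voom and DESeq2 alike, against 0.0914% higher and 0.118% lower of 15313 genes, and 2 of the 8, Alox12 and Alox15, had an unadjusted p under 0.05.

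In colon epithelium, 1 of 6 members tested was called higher in tumor, Alox12, and 2 lower, Pla2g4a and Alox5, against 7.52% and 7.88% of 16085 genes. In colon stroma, 1 of 8 was called higher, Alox5ap, and 1 lower, Pla2g4a, against 3.39% and 5.01% of 19081 genes. Between healthy epithelium and stroma, 0 of 7 were called higher in epithelium by edgeR, limma-voom and DESeq2, with 0 at an unadjusted p under 0.05, and 2 lower, Alox12 and Cysltr1, against 11.5% and 19.4% of 18468 genes. Between healthy blood neutrophils and monocytes, 1 of 8 was called higher in neutrophils, Alox5, and 1 lower, Cysltr1, against 16.7% and 20.4% of 15033 genes. In tumor, 1 of 7 was called higher in neutrophils, Alox5, and 2 lower, Cysltr1 and Pla2g4a, against 4.65% and 2.8% of 15003 genes. Comparisons that share a group, such as those with healthy blood neutrophils, are not independent of each other.

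**Figure D5:**
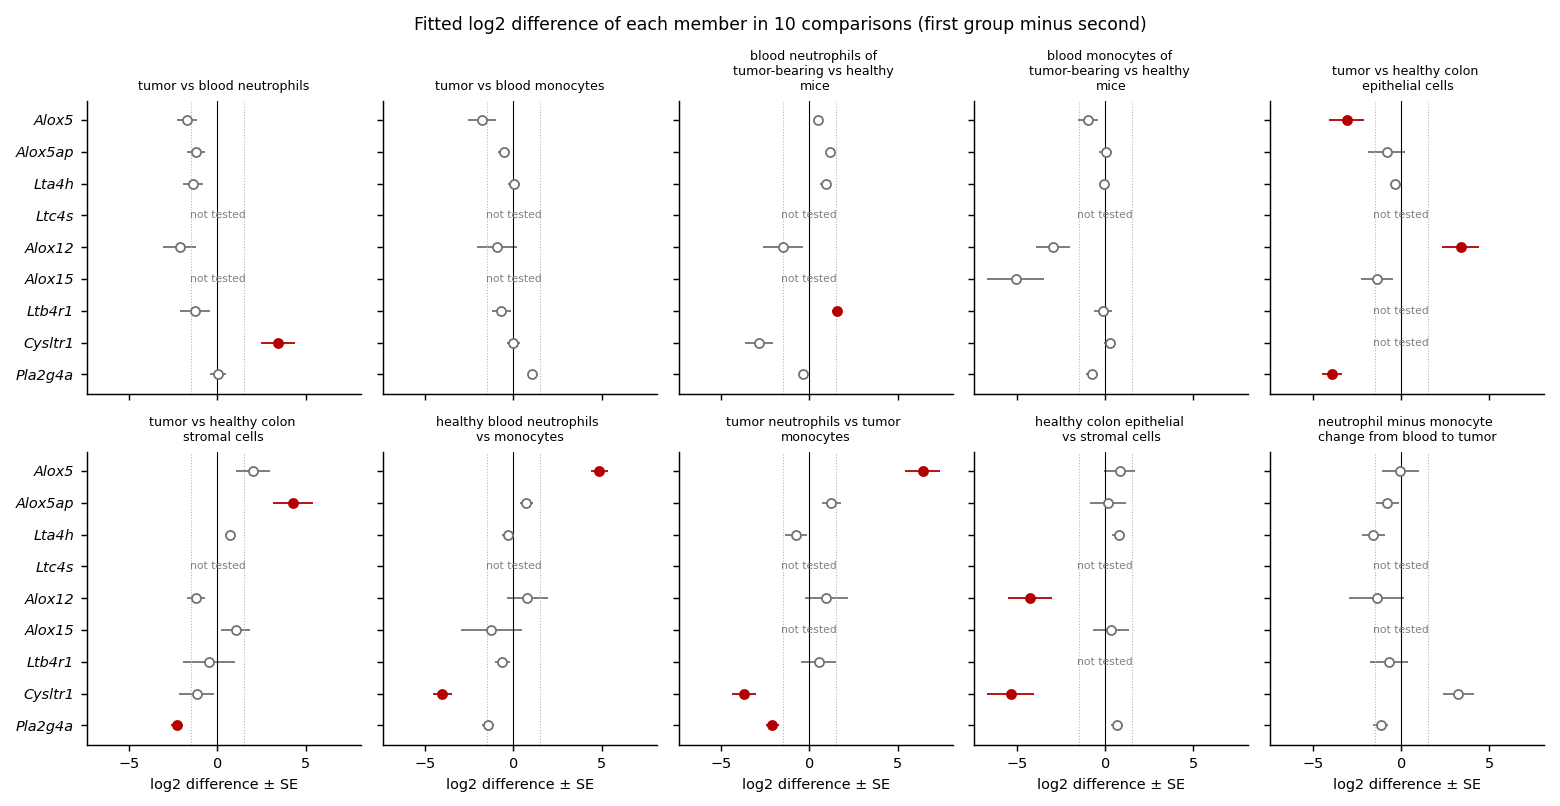
Fitted log2 difference ± SE of each of the 9 genes in 10 comparisons (first named group minus second), with filled red points for called genes and dotted lines at the fold threshold of 1.5. Alox5 lies furthest to the right in tumor neutrophils against tumor monocytes, at 6.42, and Cysltr1 furthest to the left in healthy epithelium against stroma, at -5.36.

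Other genes of the pathway were followed as a list of 36, all present in the tables. Between tumor and TB blood neutrophils, 18 were tested, 3 were called higher in tumor and 1 lower, against 11.9% and 4.41% of all genes. Those higher were Pla2g2a, a secreted phospholipase A2, from 0.0103 ± 0.0195 to 6.45 ± 6.08 RPKM, Abcc1, an exporter of leukotriene C4, from 0.0669 ± 0.0444 to 2.42 ± 0.68 RPKM, and Abcc4, a related exporter, from 0.643 ± 0.131 to 2.47 ± 1.84 RPKM. The 1 lower was Ggt5, which converts leukotriene C4 to D4, from 6.72 ± 0.68 to 1.31 ± 0.62 RPKM (all SD, n = 4). Pla2g2a was highest in tumor neutrophil replicate 1, at 15.4 RPKM against 2.39 to 5.07 in the others, which is the library with the most epithelial transcripts, and tumor epithelium held 38.3 to 63.6 RPKM of it. Abcc4 too was highest in that library, at 5.21 RPKM against 1.26 to 1.81 in the other 3, and tumor epithelium held 10.1 to 13.1 RPKM of it. Without that library Abcc4 was 1.49, under the fold threshold, and its call was kept in 5 of 8 fits without 1 library. The part of epithelial RNA in these rises was not tested.

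In monocytes, 19 of the list were tested between tumor and TB blood, with 4 called higher and 1 lower, against 7.76% and 3.89% of all genes. Cmklr1, a receptor of chemerin, went from 3.55 ± 1.98 to 19.8 ± 3.0 RPKM, Abcc1 from 0.844 ± 0.231 to 2.84 ± 0.53 RPKM and Pla2g2a from 0.0145 ± 0.0174 to 1.51 ± 0.80 RPKM, while Cyp4f16 fell from 3.32 ± 1.11 to 0.847 ± 0.416 RPKM. The 8 epithelial markers summed to 1.68 to 33.3 RPKM in tumor monocytes and to 0.491 to 0.994 RPKM in TB blood monocytes. Tumor epithelium held 48.0 ± 10.9 RPKM of Pla2g2a, and the part of epithelial RNA in its rise in monocytes was not tested. The rise of Abcc1 was larger in neutrophils than in monocytes by 3.09 on the log2 scale (standard error 0.56, adjusted p = 0.0060, edgeR), and the neutrophil change minus the monocyte change of Abcc4 was 2.30 (standard error 0.55, adjusted p = 0.0255), a call kept in 11 of 16 fits without 1 library. These were the 2 of 22 list genes called in the test of that difference, where 2.73% of all genes were called higher and 1.23% lower. Of 17 tested between TB and healthy blood neutrophils, 1 was called in each direction, against 1.79% higher and 2.22% lower of all genes. Ggt1, which acts on glutathione and its conjugates, was the higher one, at 4.65, 2.53, 0.752 and 0.683 RPKM in TB libraries and 0.0136 to 0.0989 in healthy ones. In blood monocytes, 0 of 19 were called by edgeR and limma-voom and 1 by DESeq2, and 4 had an unadjusted p under 0.05. Of all genes, edgeR called 0.0914% higher and 0.118% lower there.

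In colon epithelium, 4 of 22 list genes tested were called higher in tumor and 10 lower, against 7.52% and 7.88% of all genes. The median log2 difference of the 22 was -1.55, against -0.01 over all genes. Dpep1, a dipeptidase that converts leukotriene D4 to E4, went from 5.80 ± 4.57 to 0.0451 ± 0.0733 RPKM. Cyp4f14, of a family that hydroxylates leukotriene B4, went from 1.92 ± 1.02 to 0.147 ± 0.097 RPKM, and Mgst3, a microsomal glutathione transferase, from 15.5 ± 8.6 to 2.38 ± 1.45 RPKM. Pla2g2a rose from 0.326 ± 0.578 to 48.0 ± 10.9 RPKM (log2 difference 6.65, standard error 1.06, adjusted p = 0.00130, edgeR). C57BL/6 mice are known to carry a disrupted Pla2g2a gene, and strain and tumor cannot be told apart here.

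In stroma, 5 of 28 list genes were called higher in tumor and 1 lower, against 3.39% and 5.01% of all genes. Pla2g2a was at 26.8 ± 22.7 RPKM in tumor and 0.192 ± 0.306 in healthy stroma, and Dpep1 at 0.0984 ± 0.0470 and 16.1 ± 19.8 RPKM. The call of Pla2g2a was kept in 7 of 8 fits without 1 library. The 8 epithelial markers summed to 27.8 to 225 RPKM in tumor stroma and 2.34 to 19.7 RPKM in healthy stroma. Tumor epithelium held 48.0 ± 10.9 RPKM of Pla2g2a, and the part of epithelial RNA in its stromal values was not tested. Fpr2, a formyl peptide receptor that also binds lipoxin A4, and Lpcat2 were called higher, and both were high in replicates 3 and 4 (Fpr2 at 10.0 and 5.64 RPKM against 0.155 and 0.134 in replicates 1 and 2), the libraries with neutrophil transcripts, and the call was kept in 2 of 7 fits without 1 library for Fpr2 and in 2 of 8 for Lpcat2.

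Between healthy blood neutrophils and monocytes, 6 of 18 list genes were called higher in neutrophils and 6 lower, against 16.7% and 20.4% of all genes. Ggt5 (4.08 ± 0.70 against 0.112 ± 0.077 RPKM), Fpr2 (22.1 ± 7.5 against 1.27 ± 0.56 RPKM) and Cyp4f18, which inactivates leukotriene B4 in mouse neutrophils (16.4 ± 1.8 against 2.73 ± 0.87 RPKM), were higher in neutrophils, and Cmklr1 was lower (0.0933 ± 0.0328 against 4.93 ± 2.24 RPKM). In tumor, 3 of 19 were called higher in neutrophils and 2 lower, against 4.65% and 2.8% of all genes. Among them were Ggt5 (1.31 ± 0.62 against 0.0428 ± 0.0331 RPKM), Fpr2 (43.8 ± 21.2 against 9.64 ± 4.37 RPKM), Cmklr1 (0.518 ± 0.427 against 19.8 ± 3.0 RPKM) and Dpep2 (0.0562 ± 0.0496 against 1.21 ± 0.27 RPKM). In fits without 1 library the call was kept in 8 of 8 for Ggt5, 4 of 8 for Fpr2, 7 of 8 for Cmklr1 and 3 of 8 for Dpep2. Between healthy epithelium and stroma, 8 of 24 were called higher in epithelium and 3 lower, against 11.5% and 19.4% of all genes. Mgst3 was at 15.5 ± 8.6 against 0.519 ± 0.119 RPKM and Ggt5 at 0.00332 ± 0.00235 against 2.12 ± 0.45 RPKM (all SD, n = 4).

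Among 2488 genes with a group mean of at least 10 RPKM, those whose pattern over the 40 libraries was most like that of a member were found by Pearson's correlation of log2(RPKM + 1), which the 10 cell groups largely set. For Alox5 these were Ipcef1 (0.99), Klra17 (0.98) and Mmp9 (0.97), and for Alox5ap they were Itgb2 (0.99), Gm14699 (0.99) and Hp (0.99). The next was Cysltr1, with Plekho1 (0.95), Ccdc88a (0.91) and Ifi203-ps (0.91), then Ltb4r1 with Vsir (0.88), Tnfaip8l2 (0.88) and Stk10 (0.88), and Pla2g4a with Fam49a (0.82), AW112010 (0.81) and Tram1 (0.80). Weaker likeness was found for Alox12, with Pcp4l1 (0.78) and Hbb-bs (0.69) and Hbb-bt (0.68), which encode beta chains of hemoglobin, for Lta4h, with Arglu1 (0.77), and for Alox15, with Gm12428 (0.57). Ltc4s had no group mean of 1 RPKM and was left out. Among the members themselves, the most alike were Alox5ap and Ltb4r1 (0.84), then Cysltr1 and Pla2g4a (0.67) and Alox5 and Alox5ap (0.66).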

How the data were processed

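RNA of 40 libraries of sorted cells, 4 in each of 10 groups taken from the sample labels, had been amplified and sequenced. The authors aligned reads to mm10, citing Bowtie 2, used HTSstation to count by Ensembl gene, and deposited expected counts without normalization. The authors also deposited RPKM values, made from the same counts with 1 constant per gene and 1 per library. The annotation release and use of strand are not given in the sources used here. Of 45706 genes, 45143 were matched to a GENCODE M21 symbol.

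Expected counts (99.6% of nonzero values not whole) were rounded, filtered with filterByExpr, scaled by TMM and tested in R 4.3.3 with edgeR 4.0.16 (glmQLFit with robust = TRUE, 2-sided), with Benjamini-Hochberg adjustment over all genes of a comparison. Calls needed an adjusted p under 0.05 and a log2 difference above 1.5 in size. Totals per library were 10716847 to 38002110 counts. Over 60 pairs of replicates, squared differences were at least 21.5 times counting error, so no library was a copy of another. Markers of several cell types were summed per library. Alternatives were DESeq2 1.42.0, limma-voom from limma 3.58.1, RLE factors, no filter, no mitochondrial genes, a fit of all 40 libraries, limma on log2(RPKM + 1) and log2(RPKM + 0.1), no fold threshold, replicate or animal blocks, and leaving out libraries. Fits without healthy blood neutrophil replicates 1 and 2, and without tumor stromal replicates 3 and 4, were chosen after seeing the data. The pipeline was tested on simulated data. By the titles, same-numbered libraries shared an animal in 3 pairs of tumor neutrophils and monocytes and in 1 pair each of tumor and blood monocytes, healthy blood neutrophils and monocytes, and healthy epithelium and stroma, and in no comparison did all 4 pairs deviate together with a correlation over 0.1.

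The text names all 9 members, for each comparison up to 4 called genes with the largest differences of the list of 36 that had a mean of at least 1 RPKM in a group, and the 3 genes most like each member. The members and lists were chosen with earlier results of these data known. Promoters are from RefSeq.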

Additional observations from a re-analysis of the deposited data

Results flagged for a closer look

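In groups of 4 libraries, a library was singled out when its gap to the nearest of the other 3 took up most of the range of the group. Chance singles out about 1 in 20 groups, and 15 of the 90 groups tested (9 genes in 10 groups) were singled out.

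Among members with clear expression, healthy blood monocyte replicate 2 was the highest of its group in both Alox15 (6.46 RPKM, others 0.00687 to 0.326) and Ltb4r1 (5.38 RPKM, others 1.79 to 2.13), and it was also the library with the most eosinophil marker RNA. Healthy epithelial replicate 4, the library with the most mitochondrial counts, was the lowest of its group in Pla2g4a (0.299 RPKM, others 3.28 to 3.53) and the highest in Alox12 (0.129 RPKM, others 0.00888 to 0.0264). Lta4h was highest in healthy stromal replicate 2, at 2.65 RPKM against 1.94 to 2.02. Cysltr1 was highest in healthy blood neutrophil replicate 1, at 0.272 RPKM against 0.060 to 0.0784. Alox12 was highest in tumor monocyte replicate 3, at 0.551 RPKM against 0.0143 to 0.0741.

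The others rest on few counts or on 1 library of the group with counts. Alox15 stood at 0.558 RPKM in tumor neutrophil replicate 1 and at 0.096 RPKM in tumor monocyte replicate 2. Ltb4r1 stood at 0.0129 RPKM in 1 healthy epithelial library, from 1 count, and at 0.12 RPKM in 1 tumor epithelial library, from 15 counts. Ltc4s, never above 18 counts, was highest in 1 library at 0.148 RPKM in healthy blood monocytes, 0.0298 in TB blood monocytes and 0.432 in tumor monocytes, and lowest in 1 healthy stromal library at 0.0454 RPKM against 0.207 to 0.227.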

How the results depend on the processing

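The number of members called was counted under each alternative. Between tumor and TB blood neutrophils it was 1, and 2 by limma-voom, 3 by DESeq2, 2 in the fit of all 40 libraries, 0 with no filter and 0 to 1 without single libraries. Between tumor and TB blood monocytes it was 0, and 1 with no fold threshold. Between TB and healthy blood neutrophils it was 1, and 2 by DESeq2, 2 with no fold threshold, 0 in the fit of all 40 libraries, 0 by limma on log2(RPKM + 1), 0 by limma on log2(RPKM + 0.1), 0 without healthy blood neutrophil replicates 1 and 2, and 0 to 1 without single libraries. In colon epithelium it was 3, and 2 by limma-voom and by DESeq2, which gave no p for Alox12, 1 with no filter, 0 by limma on log2(RPKM + 1) and 1 to 2 without single libraries. In colon stroma it was 2, and 1 by limma-voom, 1 with no filter, 0 by limma on log2(RPKM + 1), 1 by limma on log2(RPKM + 0.1) and 1 to 2 without single libraries. Between healthy epithelium and stroma it was 2, and 1 to 3 without single libraries. For the neutrophil change minus the monocyte change it was 0, and 1 by DESeq2, with RLE factors and in the fit of all 40 libraries, and 0 to 1 without single libraries. Fewer libraries or other sets of genes enter several of these fits, and otherwise the cause was not tested.

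Same-numbered libraries did not deviate together in every pair of any comparison, and with the replicate number as a block the count was 0 between tumor and TB blood neutrophils and 1 in colon stroma. On the TMM scale 5 of the 9 members kept the group with their highest RPKM.

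Of 38 member differences printed, the sign turned in 4. Alox15 between healthy blood neutrophils and monocytes ran from -1.92 to 2.29 over single left-out libraries. Alox12 in the neutrophil change minus the monocyte change ran from -2.10 to 0.83. Alox12 between TB and healthy blood neutrophils was 2.22 without healthy replicates 1 and 2, and Alox5 in stroma was -1.41 without tumor replicates 3 and 4. Of all 737 values of these differences under alternatives, 653 kept their direction and side of the threshold, 57 lost a call and 23 gained one. The other 34 member differences, with sizes up to 1 and no adjusted p under 0.05, were called under none, and 17 changed sign under at least 1. Of the 31 calls of list genes named, 22 were kept in every fit without 1 library and 9 were lost in at least 1. With 4 libraries a group and few counts, differences of Ltc4s, Alox15, and of Cysltr1 in neutrophils, could not be measured closely.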
